A study of Xenopus laevis with 12 samples.

Results

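ets1.L, ednra.S and kit.L are 3 of the 11303 Xenopus laevis genes that probe sets with 1 symbol name on the array used here, a 3' expression array from Affymetrix hybridised with animal cap RNA. All 7 probe sets annotated to the 3 symbols were taken, 3 for ets1.L, 3 for ednra.S and 1 for kit.L, of 15495 probe sets with 1 symbol. The 3 genes were chosen by their measured log2 differences among these groups, so their levels and differences are given as a description, with no p value. The animal cap is the roof of the blastula, an ectoderm that forms epidermis unless other signals reach it. Embryos received mRNA at the 2-cell stage, caps were cut at stage 9 and RNA was taken at stage 15, from 3 samples per group. By their labels, the 4 groups received wnt3a, chordin and kctd15 (wnt3a+chordin+kctd15), wnt3a and chordin (wnt3a+chordin), kctd15 (kctd15), or lacZ as the control mRNA (lacZ). The series was made to find genes that respond to Kctd15 in caps given wnt3a and chordin. Neither the doses nor the number of caps per sample is given in the sources used here.

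Ets1 is a transcription factor of the Ets family, which binds DNA through a winged helix domain, and it takes part in the delamination and migration of cranial neural crest cells and in blood vessel formation. Ednra is a G protein-coupled receptor for endothelin 1, which patterns the cranial crest of the pharyngeal arches in mouse and zebrafish. Kit is a receptor tyrosine kinase whose ligand, kit ligand, guides the migration and survival of pigment cell precursors, blood progenitors and germ cells in mouse. Chordin binds and blocks BMPs, Wnt3a activates Wnt signalling, and together they turn cap ectoderm towards neural crest. Kctd15 is a BTB domain protein that restricts crest formation and inhibits AP-2 factors. Xenopus laevis is allotetraploid, so that most genes have a homeolog on a long (.L) and one on a short (.S) chromosome.

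The deposited values were log2 expression per probe set, and the correlation over probe sets between replicates was 0.971 to 0.986. Separate embryo batches are not named in the labels, so that errors and p values measure the spread among these samples only. The probe set of wnt3a.S averaged 12.59 ± 0.49 with wnt3a+chordin+kctd15 and 12.76 ± 0.26 with wnt3a+chordin, against 4.58 ± 0.61 with kctd15 and 5.90 ± 0.63 with lacZ (log2 level, SD, n = 3). That of chrd.1.S, a chordin gene, had 8.84, 11.14 and 8.87 with wnt3a+chordin+kctd15 and 8.50, 10.20 and 10.38 with wnt3a+chordin. It had 5.23, 4.48 and 9.08 with kctd15 and 4.08, 3.79 and 9.37 with lacZ. Replicate 3 of kctd15 and of lacZ thus lay within the range of the arrays labelled with chordin. The source of this transcript was not tested. That of kctd15.L went against the labels: it averaged 5.16 ± 1.63 with wnt3a+chordin+kctd15 and 10.66 ± 0.40 with wnt3a+chordin, and 4.79 ± 1.43 with kctd15 and 10.96 ± 0.26 with lacZ. Whether its probes lie within the injected mRNA was not examined, and every direction given below for kctd15 is that of the arrays labelled so. One reporter of the lac operon averaged 4.96 ± 0.26 in wnt3a+chordin+kctd15 arrays, against 13.95 ± 0.44 with wnt3a+chordin, 13.53 ± 0.54 with kctd15 and 14.24 ± 0.32 with lacZ. Comparisons of the first group with any other thus also differ in this transcript. The labels name lacZ for the lacZ group only, while the wnt3a+chordin and kctd15 arrays also had this transcript. Somitic muscle transcripts, averaged over 25 genes, were highest in wnt3a+chordin+kctd15 replicate 2 (7.36) and lacZ replicate 3 (6.89), against 4.68 to 6.55 in the other arrays. With bulk RNA, fewer cells of a type and less RNA per cell cannot be told apart.

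The 3 genes had 3 different patterns. With wnt3a+chordin compared with lacZ, ednra.S was higher, kit.L was lower, and the groups overlapped for ets1.L. In arrays labelled wnt3a+chordin+kctd15, ets1.L and ednra.S were lower and kit.L was higher than in those labelled wnt3a+chordin. In arrays labelled kctd15, ets1.L and ednra.S were lower than with lacZ, and for kit.L these groups overlapped. As a name for all 3, crest genes therefore matched their levels only in part. kit.L was highest in the caps without wnt3a and chordin, and ets1.L was not apart between wnt3a+chordin and lacZ.

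Counted by probe set, with "apart" meaning that the 3 arrays of one group all lay above the 3 of the other, 6 of 7 were apart and lower and 1 apart and higher in wnt3a+chordin+kctd15 arrays than in wnt3a+chordin arrays. Over all 32475 tested probe sets, 5.24% were apart and lower and 4.29% apart and higher. Between kctd15 and lacZ, 5 were apart and lower, 0 apart and higher and 2 overlapped, where 11.5% of all probe sets were apart and lower and 13.9% apart and higher. Between wnt3a+chordin and lacZ, 3 were apart and higher, 1 apart and lower and 3 overlapped, against 31.8% and 20.6% of all. For wnt3a+chordin+kctd15 over kctd15 there were 3 apart and higher, 1 apart and lower and 3 overlapping, against 27.8% and 22.2%. Between wnt3a+chordin+kctd15 and lacZ, 0 were apart and higher, 3 apart and lower and 4 overlapped, against 29.6% and 20.5%. At an adjusted p under 0.05, the share of all probe sets called was 42% for wnt3a+chordin+kctd15 over kctd15 (23.6% higher, 18.5% lower) and 41.9% for wnt3a+chordin+kctd15 over lacZ (24.3% higher, 17.6% lower). The members were picked for such differences, and nothing is read from their counts. The 5 comparisons share groups and are not independent.

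**Figure D1:**
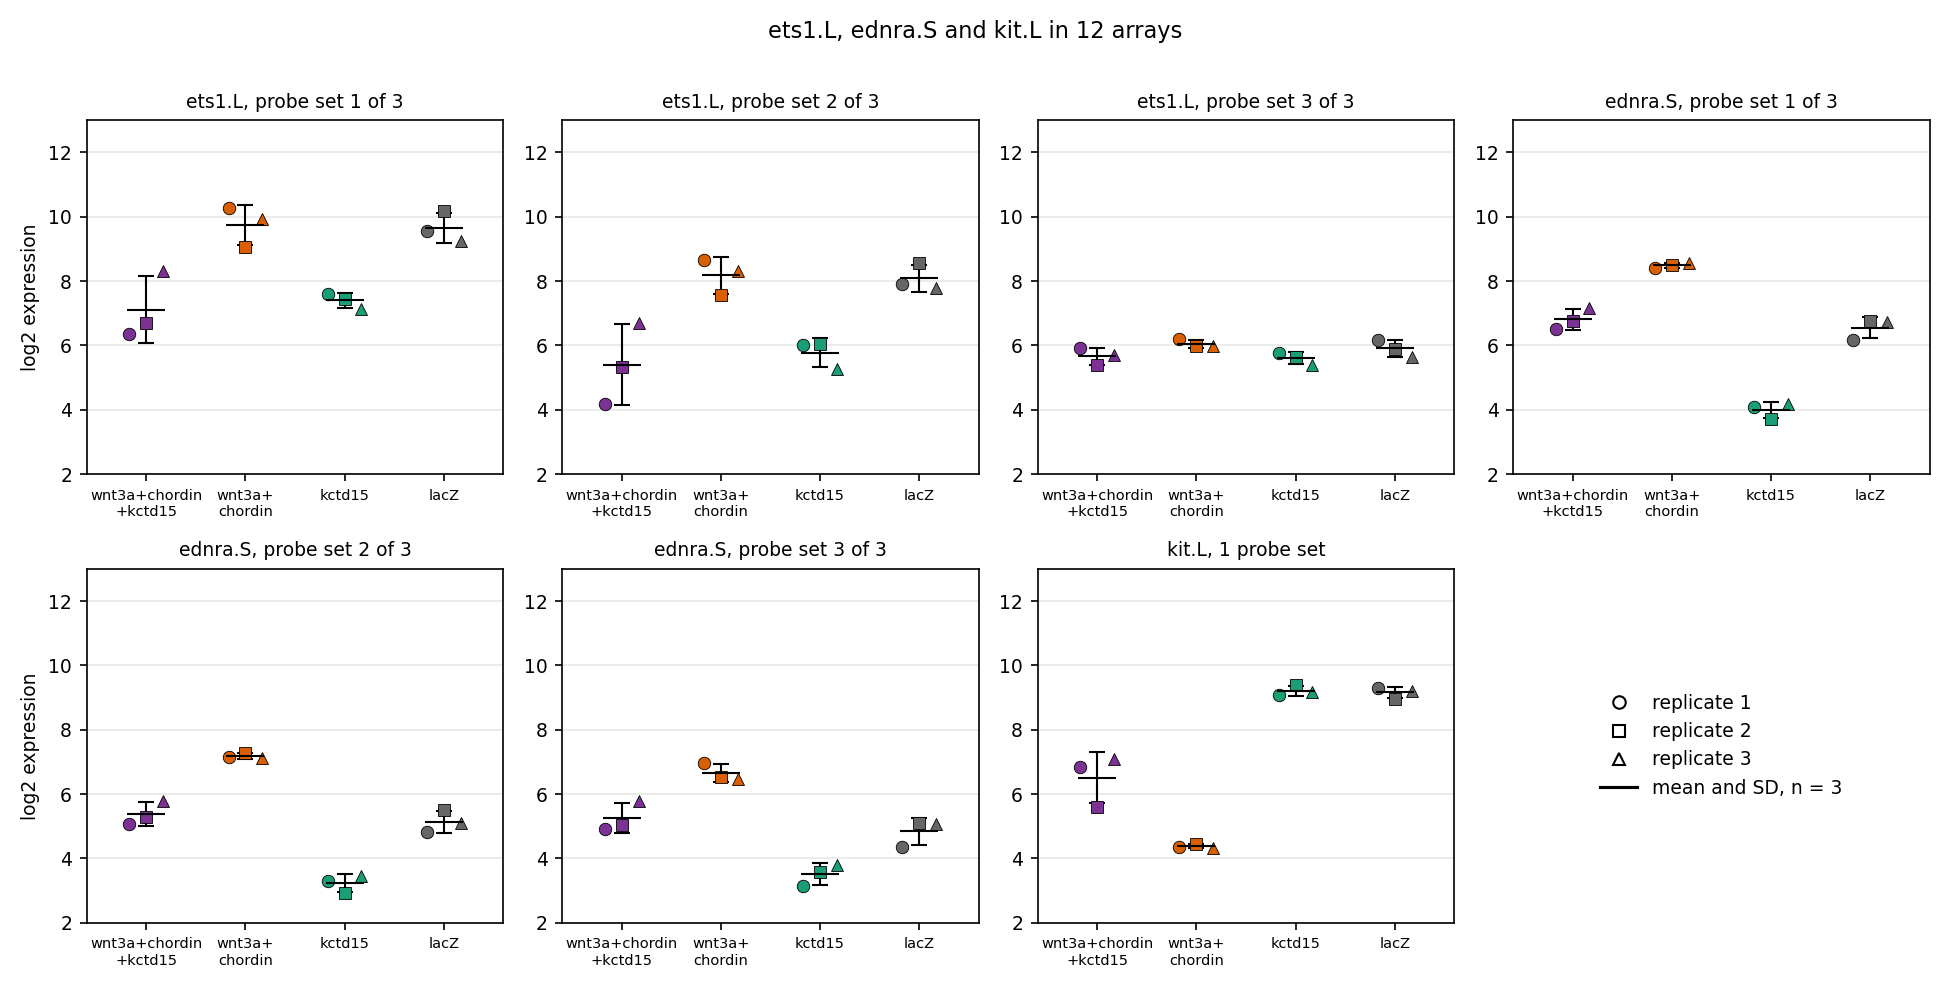
Log2 expression (y axis) of each probe set of ets1.L, ednra.S and kit.L in the 12 arrays, by injection group (x axis), with a point shape per replicate number and black bars for the mean and SD of 3 arrays. The wnt3a+chordin arrays lie highest for ednra.S (8.40 to 8.57 in its first probe set) and lowest for kit.L (4.34 to 4.44).

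ets1.L (chromosome 7L, 74668296 to 74708813, Xenopus laevis assembly 10.1) has 3 probe sets here. In the one with the highest mean, Xl2.142.1.S1_at, the log2 levels were 6.35, 6.69 and 8.31 in wnt3a+chordin+kctd15 arrays, 10.27, 9.06 and 9.92 in wnt3a+chordin arrays, 7.61, 7.46 and 7.13 in kctd15 arrays and 9.55, 10.16 and 9.24 in lacZ arrays. Both groups labelled kctd15 lay wholly below both groups without it. Within each pair, wnt3a+chordin and lacZ overlapped, and so did wnt3a+chordin+kctd15 and kctd15. The level was 2.64 log2 units lower with wnt3a+chordin+kctd15 than with wnt3a+chordin, a 6.22-fold difference (-2.64, SE 0.48), and the replicate differences were -3.92, -2.38 and -1.61. It was 4.77-fold lower with kctd15 than with lacZ (-2.25, SE 0.48), with replicate differences of -1.94, -2.71 and -2.11. The first of these differences minus the second was -0.38, with an SE of 0.68. Between wnt3a+chordin and lacZ the difference was 0.10 and between wnt3a+chordin+kctd15 and kctd15 it was -0.28, both with an SE of 0.48.

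Within its group, wnt3a+chordin+kctd15 replicate 3 had the highest ets1.L level, 8.31. That array also had the highest mean of 13 neural crest markers in its group, 9.90, against 8.33 in replicate 1 and 8.41 in replicate 2. Its mean of 13 epidermal markers, 10.43, was the highest in the group too. Between groups, the crest mean was 10.53 to 11.37 with wnt3a+chordin and 5.75 to 7.04 with lacZ, where ets1.L overlapped. It was 8.33 to 9.90 with wnt3a+chordin+kctd15 and 5.62 to 5.97 with kctd15, where ets1.L overlapped as well. The part of crest content in the ets1.L level was not tested.

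The probe sets of ets1.L disagreed in size. In Xl2.142.2.S1_a_at the levels were 4.19, 5.32 and 6.70 with wnt3a+chordin+kctd15, 8.66, 7.55 and 8.31 with wnt3a+chordin, 6.01, 6.05 and 5.25 with kctd15 and 7.92, 8.57 and 7.78 with lacZ. This profile followed the first one closely: centred on their means over the 12 arrays, the 2 profiles were 0.21 log2 units apart (root-mean-square distance). The third, Xl2.142.2.A1_at, stayed between 5.39 and 6.20 in all arrays and was 1.18 from the first. Its differences were -0.39 between wnt3a+chordin+kctd15 and wnt3a+chordin and -0.30 between kctd15 and lacZ (SE 0.18 each), and between kctd15 and lacZ its groups overlapped. Its values lay near 5.76, the 95th percentile of 60 reporter probe sets for foreign sequences, which have no target in these caps and give a level for background here. In the second probe set, wnt3a+chordin+kctd15 replicates 1 and 2 and kctd15 replicate 3 lay below that percentile. No other detection value was used here.

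The homeolog ets1.S (7S, 60312129 to 60353448) had another pattern. Its levels were 8.48, 7.70 and 9.48 with wnt3a+chordin+kctd15, 9.82, 9.10 and 9.53 with wnt3a+chordin, 7.05, 7.45 and 6.79 with kctd15 and 7.66, 8.10 and 7.44 with lacZ. All wnt3a+chordin arrays lay above all lacZ arrays, and ets1.S rose by 1.75 (SE 0.39; limma, adjusted p = 0.00448). It also rose between wnt3a+chordin+kctd15 and kctd15, by 1.46 (adjusted p = 0.0118). Its kctd15 differences were -0.93 with wnt3a and chordin (adjusted p = 0.690) and -0.64 without (adjusted p = 0.441), and neither passed. The groups overlapped in both, and in each 3 of 3 replicate differences were below 0, the direction of ets1.L. So the wnt3a and chordin difference was called for ets1.S and was 0.10 for ets1.L, while the kctd15 differences of ets1.L were the larger ones in size. A test of the difference between the homeologs was not made. Transcripts of near-identical homeologs can bind the same probes, and where the probes lie was not examined.

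ets2, the closest relative of ets1 among Ets factors, was also measured. The probe set of ets2.L had differences of -0.04 with wnt3a+chordin+kctd15 over wnt3a+chordin and 0.05 with kctd15 over lacZ, and none of its comparisons was called. Of the 3 probe sets of ets2.S, 2 were called between wnt3a+chordin+kctd15 and lacZ (0.95, adjusted p = 0.0422, and 0.94, adjusted p = 0.0306). The call of the first was lost without wnt3a+chordin+kctd15 replicate 1 or 3, wnt3a+chordin replicate 3, kctd15 replicate 2 or 3 or lacZ replicate 2 or 3 (adjusted p up to 0.150), and that of the second without wnt3a+chordin+kctd15 replicate 1 or 3 or lacZ replicate 2 or 3 (up to 0.111). With the replicate number as a block the third was called too (0.94, adjusted p = 0.00308, and 0.0518 without it). In kctd15 arrays ets2.S was 0.78 to 0.86 higher than with lacZ in its 3 probe sets, which were not called (adjusted p = 0.253, 0.176 and 0.142) but were with the replicate number as a block (0.0296, 0.0377 and 0.0202). In wnt3a+chordin arrays it was 0.59 to 0.69 higher than with lacZ, not called (adjusted p = 0.200, 0.128 and 0.158) but called with the block (0.0264, 0.0303 and 0.0288).

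ednra.S (1S, 46338310 to 46396518) was the one of the 3 whose wnt3a+chordin arrays lay above those of every other group. In Xl2.56668.1.S1_at the log2 levels were 6.50, 6.75 and 7.17 with wnt3a+chordin+kctd15, 8.40, 8.50 and 8.57 with wnt3a+chordin, 4.08, 3.72 and 4.19 with kctd15 and 6.18, 6.74 and 6.74 with lacZ. The wnt3a+chordin arrays lay above all others and the kctd15 arrays below all others, while wnt3a+chordin+kctd15 and lacZ overlapped in between. The level was 3.20-fold lower with wnt3a+chordin+kctd15 than with wnt3a+chordin (-1.68, SE 0.21), with replicate differences of -1.89, -1.74 and -1.40. It was 5.89-fold lower with kctd15 than with lacZ (-2.56, SE 0.21), with replicate differences of -2.10, -3.02 and -2.55. Wnt3a+chordin was 1.93 above lacZ, and wnt3a+chordin+kctd15 was 2.81 above kctd15. Between wnt3a+chordin+kctd15 and lacZ the difference was 0.25.

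For ednra.S the kctd15 difference with wnt3a and chordin minus that without was 0.88 (SE 0.29). The kctd15 arrays were all below the 95th percentile of the reporters, 5.76, in each of the 3 probe sets, so that the lower end of this difference lies within the range of background. The other 2 probe sets, made from 1 shared sequence record, had the same order of groups. Xl2.56668.2.A1_x_at had a difference of -1.79 between wnt3a+chordin+kctd15 and wnt3a+chordin and -1.90 between kctd15 and lacZ, and Xl2.56668.2.A1_at had -1.41 and -1.33. In these 2 the difference of the differences was near 0 (0.11 and -0.08). Both had all lacZ arrays and wnt3a+chordin+kctd15 replicates 1 and 2 below 5.76 as well.

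The other endothelin receptors measured were low in these caps. The homeolog ednra.L lay between 3.61 and 5.48, below the 95th percentile of the reporters in 12 of 12 arrays, and had no call in any comparison. The related receptor ednrb2.S, of the type that marks pigment cell precursors in birds and frogs, lay between 4.69 and 5.14 with no call either. edn1.L, the ligand, had 4.54, 3.71 and 4.57 with wnt3a+chordin+kctd15, 5.96, 4.34 and 5.93 with wnt3a+chordin, 4.37, 4.13 and 4.08 with kctd15 and 4.65, 4.12 and 3.86 with lacZ. Replicates 1 and 3 of wnt3a+chordin lay above all others, and the other 10 arrays were below the reporters' 95th percentile. edn1.L rose by 1.20 between wnt3a+chordin and lacZ (adjusted p = 0.0394), a call lost without wnt3a+chordin replicate 1 or 3, without any kctd15 array or without lacZ replicate 2 or 3 (adjusted p up to 0.139). Its difference between wnt3a+chordin+kctd15 and wnt3a+chordin, -1.13, was not called (adjusted p = 0.509). It was -1.67 without wnt3a+chordin replicate 2 (adjusted p = 0.0415). The genes ednrb, edn2 and edn3 had no probe set named here.

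kit.L (1L, 41926234 to 41958985) was higher, where ets1.L and ednra.S were lower, in wnt3a+chordin+kctd15 arrays than in wnt3a+chordin arrays. Its levels in Xl2.30.1.S1_at were 6.83, 5.61 and 7.10 with wnt3a+chordin+kctd15, 4.34, 4.44 and 4.34 with wnt3a+chordin, 9.09, 9.38 and 9.17 with kctd15 and 9.29, 8.97 and 9.21 with lacZ. The kctd15 and lacZ arrays overlapped at the top, the wnt3a+chordin+kctd15 arrays came next and the wnt3a+chordin arrays were lowest, all 3 of them below the reporters' 95th percentile. Wnt3a+chordin was 27.5-fold below lacZ (-4.78, SE 0.31), the largest difference among the 7 probe sets. In arrays labelled wnt3a+chordin+kctd15 it was 4.40-fold above wnt3a+chordin (2.14, SE 0.31), with replicate differences of 2.49, 1.16 and 2.76. Even so it stayed 2.64 below lacZ and 2.70 below kctd15. Between kctd15 and lacZ the difference was 0.06, with replicate differences of -0.20, 0.42 and -0.04. The difference of the kctd15 differences was 2.08 (SE 0.43), and 2.53 without wnt3a+chordin+kctd15 replicate 2, the array with the lowest kit.L and the most muscle transcript in its group.

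**Figure D2:**
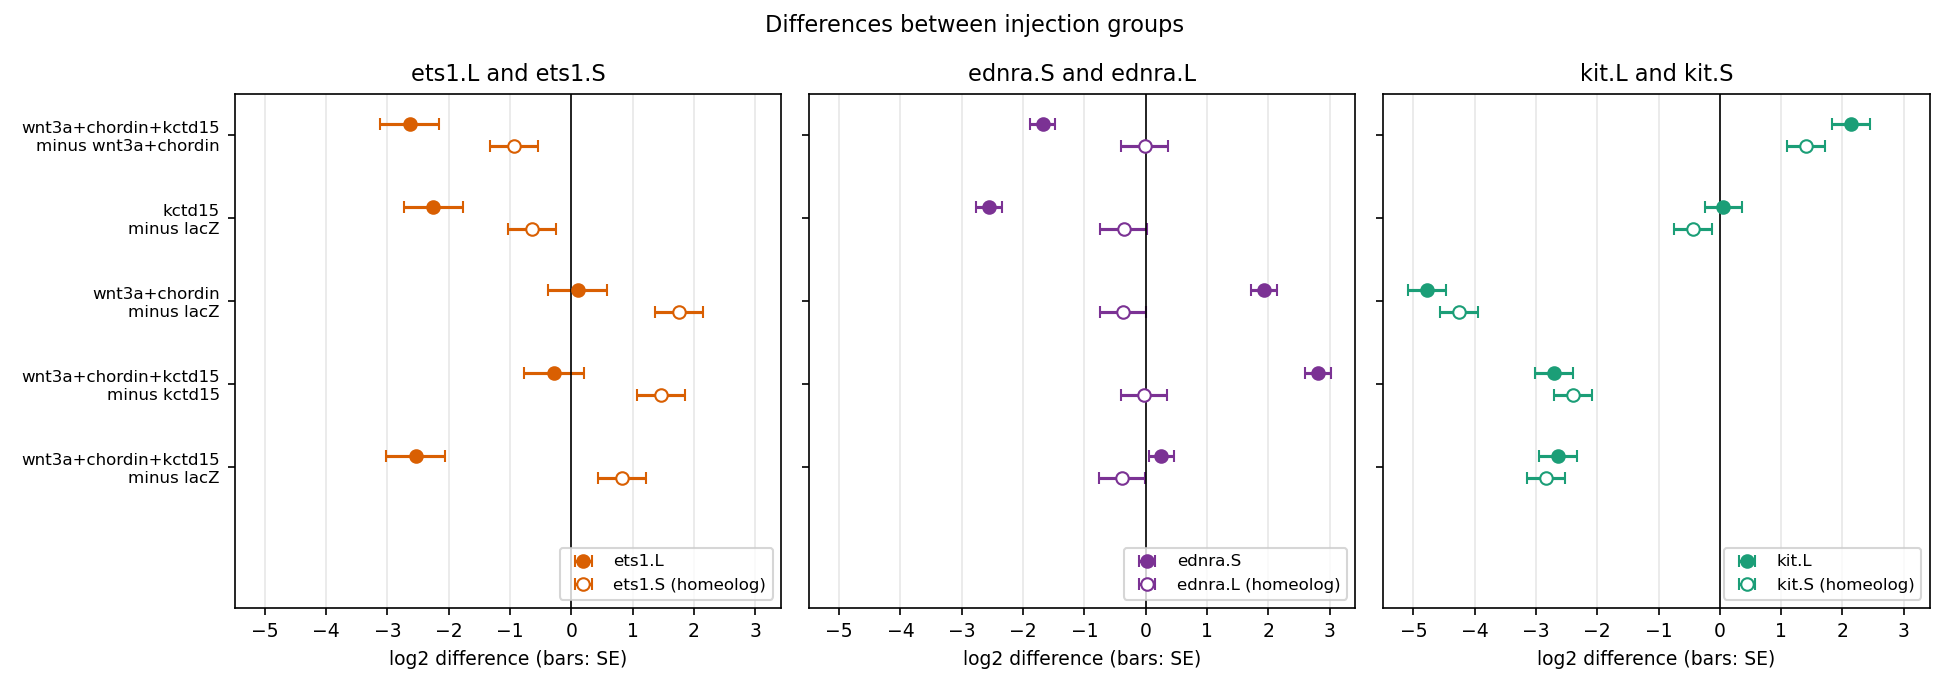
Log2 differences between groups (x axis, error bars SE) in 5 comparisons (rows) for the probe set with the highest mean of ets1.L, ednra.S and kit.L (filled) and for their homeologs (open). kit.L and kit.S lie on the same side of 0 in the 4 comparisons that involve wnt3a and chordin, while ednra.L stays within 0.38 of 0.

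The homeolog kit.S (1S, 29295870 to 29334965) followed the same order. Its levels were 8.73, 8.12 and 9.49 with wnt3a+chordin+kctd15, 7.26, 7.17 and 7.68 with wnt3a+chordin, 10.82, 11.19 and 11.53 with kctd15 and 11.48, 11.58 and 11.80 with lacZ. It fell by 4.25 between wnt3a+chordin and lacZ (adjusted p = 4.47e-06), where 41.3% of all probe sets were called. It also fell by 2.40 between wnt3a+chordin+kctd15 and kctd15 (adjusted p = 0.000143) and by 2.84 between wnt3a+chordin+kctd15 and lacZ (adjusted p = 5.03e-05). In wnt3a+chordin+kctd15 arrays it was 1.41 higher than in wnt3a+chordin arrays, in 3 of 3 replicate differences and with no overlap, and was not called (adjusted p = 0.0923), in a comparison where 0.647% of all probe sets were. With the replicate number as a block this difference was called (adjusted p = 0.0174), as it was without wnt3a+chordin+kctd15 replicate 2 (1.74, adjusted p = 0.0265). Between kctd15 and lacZ it was -0.44 (adjusted p = 0.522), in a comparison with 6.99% of all probe sets called. The kctd15 differences with and without wnt3a and chordin differed by 1.85 (adjusted p = 0.0844, and 0.0178 with the block).

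The ligand of Kit was lower in the same caps. kitlg.L had 8.08, 8.33 and 9.41 with wnt3a+chordin+kctd15, 7.78, 5.11 and 8.11 with wnt3a+chordin, 12.21, 12.12 and 11.98 with kctd15 and 11.94, 12.22 and 12.02 with lacZ. It fell 33.4-fold between wnt3a+chordin and lacZ (-5.06, adjusted p = 0.000134) and by 3.50 between wnt3a+chordin+kctd15 and kctd15 (adjusted p = 0.00142). kitlg.S lay between 2.61 and 3.03 in all 6 arrays with wnt3a and chordin and between 5.27 and 6.82 in the 6 without, and fell between wnt3a+chordin and lacZ (-3.11, adjusted p = 0.000133), with the lower values in the background range. The kctd15 differences of kitlg.L were 1.61 with wnt3a and chordin (adjusted p = 0.633) and 0.04 without, and neither was called.

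**Figure D3:**
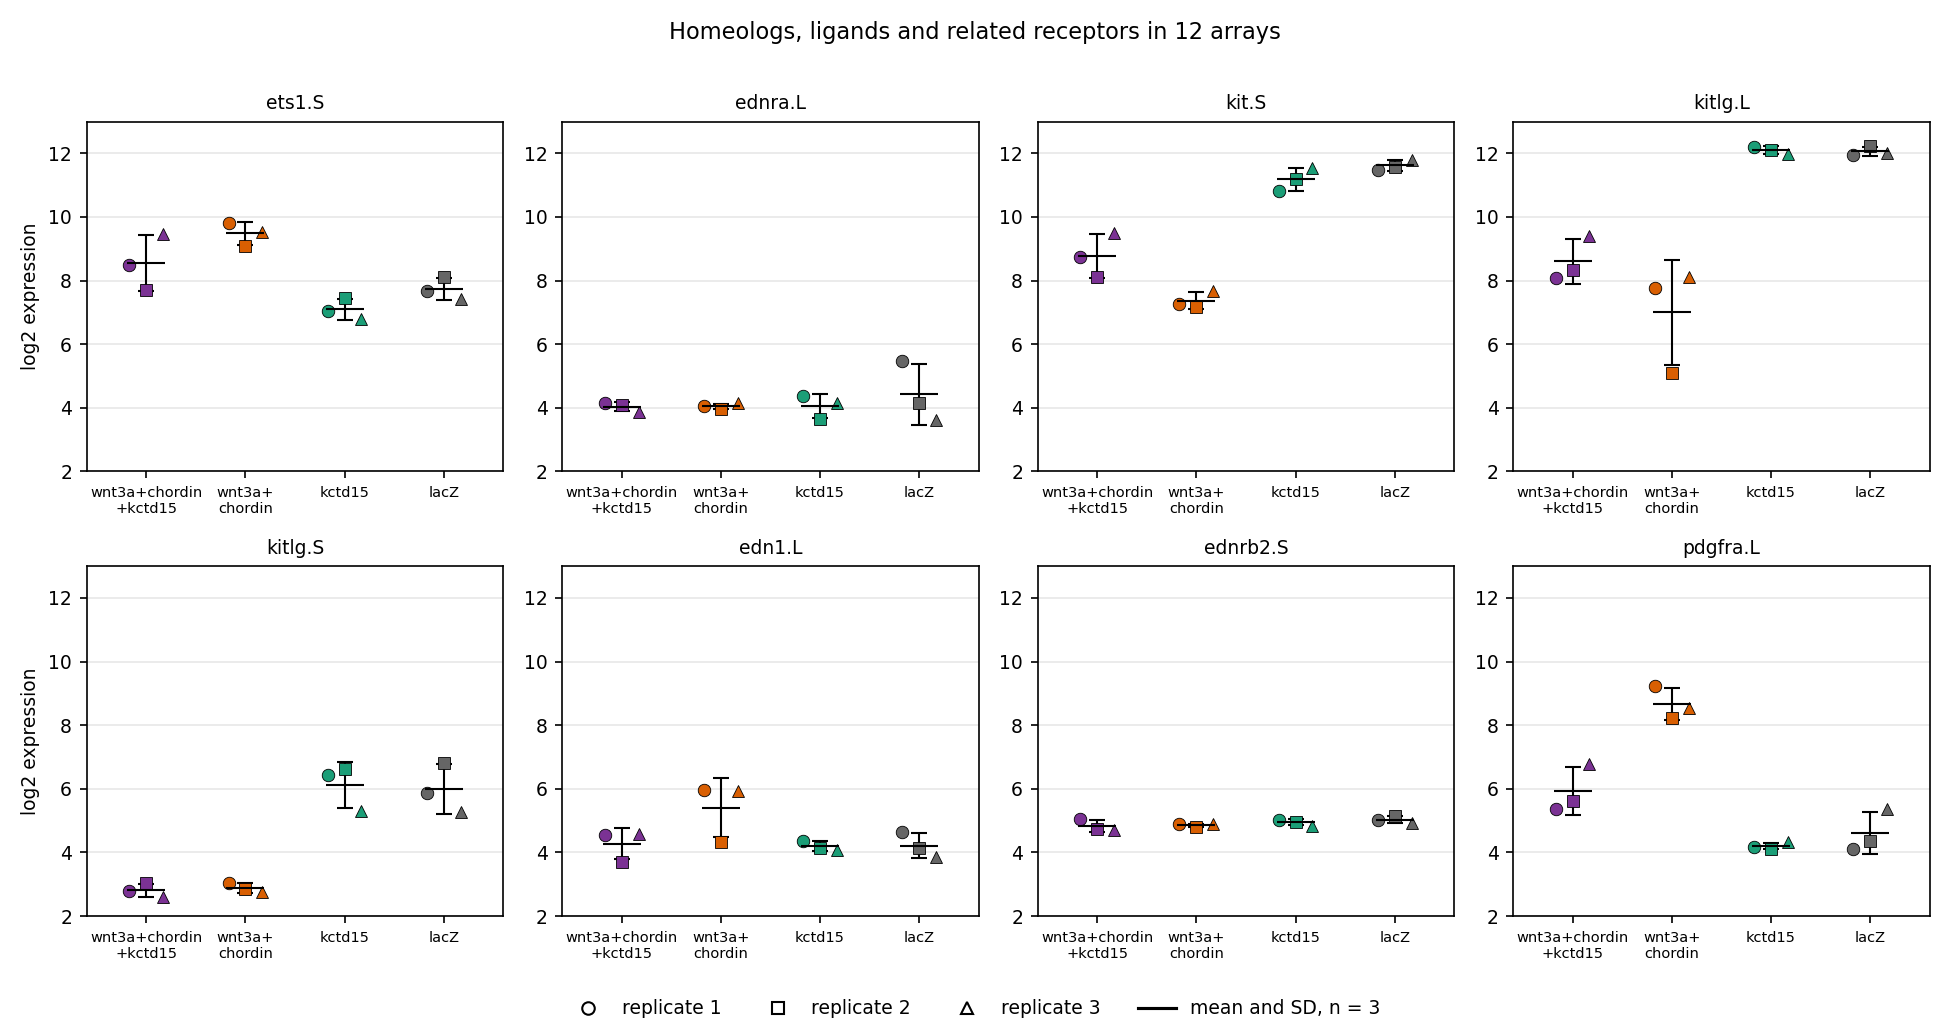
Log2 expression (y axis) of homeologs, ligands and related receptors in the 12 arrays, by injection group (x axis), with a point shape per replicate number and black bars for the mean and SD of 3 arrays. kit.S, kitlg.L and kitlg.S are lower in the 6 arrays with wnt3a and chordin than in the 6 without, and pdgfra.L is highest with wnt3a+chordin (8.22 to 9.23).

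pdgfra.L, a related receptor tyrosine kinase that crest cells use in migration, is the neighbour of kit.L on chromosome 1L (41756745 to 41782987), with 143 kb and no annotated gene between them in assembly 10.1. Its levels in Xl2.20029.1.S1_at were 5.38, 5.61 and 6.79 with wnt3a+chordin+kctd15, 9.23, 8.22 and 8.55 with wnt3a+chordin, 4.18, 4.12 and 4.31 with kctd15 and 4.10, 4.37 and 5.36 with lacZ. This is the opposite order to that of kit.L in the groups with wnt3a and chordin. pdgfra.L rose between wnt3a+chordin and lacZ (4.06, SE 0.42, limma adjusted p = 3.18e-05). In this probe set all lacZ and all kctd15 arrays lay below the reporters' 95th percentile, so that the size of this difference rests on values in the background range. The other probe set rose by 2.85 (limma adjusted p = 0.000163), and its lacZ replicate 3 (6.34) and kctd15 replicate 3 (5.85) lay above that percentile. In the first probe set pdgfra.L fell by 2.74 in wnt3a+chordin+kctd15 arrays relative to wnt3a+chordin arrays (SE 0.42, adjusted p = 0.0194). This call was lost without wnt3a+chordin+kctd15 replicate 1 or 2 or wnt3a+chordin replicate 1 or 3 (adjusted p up to 0.0809). In its other probe set that difference was -1.84, not called (adjusted p = 0.0670; 0.0151 with the replicate block). The block also called the difference of the kctd15 differences in the first probe set (-2.34, adjusted p = 0.0471, and 0.104 without it) and the difference between wnt3a+chordin+kctd15 and lacZ in the second (1.01, adjusted p = 0.00990, and 0.0524 without it). For kctd15 over lacZ its 2 probe sets had -0.41 and -0.20 and were not called. The other receptors of this family, pdgfrb, csf1r and flt3, had no probe set named here.

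The other genes of the same families and pathways were taken from 5 lists with 147 probe sets of 108 genes, ets1.L, ednra.S and kit.L left out. Between wnt3a+chordin+kctd15 and wnt3a+chordin 0 were called higher and 7 lower (limma; 6 and 27 at an unadjusted p under 0.05), or 12 in all with the replicate block. The 7 became 1 without wnt3a+chordin+kctd15 replicate 1 or wnt3a+chordin replicate 1, 3 without wnt3a+chordin+kctd15 replicate 2 or wnt3a+chordin replicate 3, and 4 without wnt3a+chordin replicate 2, any kctd15 array or lacZ replicate 1 or 2. This is 4.76% of the lists, against 0.647% of all tested probe sets (0.142% higher, 0.505% lower). For kctd15 over lacZ 4 were called higher and 17 lower, or 36 in all with the block, and 10 without kctd15 replicate 1 or 2, 11 without lacZ replicate 1 and 12 without lacZ replicate 2. This is 14.3% of the lists, against 6.99% of all (2.68% higher, 4.31% lower). For wnt3a+chordin over lacZ 59 were called higher and 22 lower, which is 55.1% of the lists, against 41.3% of all (24.2% higher, 17.1% lower). The difference between the kctd15 differences with and without wnt3a and chordin was called for 3 higher and 1 lower, against 1.14% of all (0.708% higher, 0.434% lower), and for 7 in all with the block or without wnt3a+chordin+kctd15 replicate 3, and 2 without wnt3a+chordin replicate 3.

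Of 32 probe sets of Ets family genes, 0 were called in either direction between wnt3a+chordin+kctd15 and wnt3a+chordin, where 0.647% of all tested probe sets were. At an unadjusted p under 0.05 (limma), 0 were higher and 2 lower. The lowest p there was that of ets1.S. Relative to lacZ, kctd15 arrays had 0 higher and 3 lower (6 and 8 unadjusted), or 9.38% of the list against 6.99% of all. The 3 belonged to etv4.L, a target and effector of FGF signalling, and to etv3.L, an Ets repressor. etv4.L fell by 1.37 (adjusted p = 0.0336) and etv3.L by 1.28 (adjusted p = 0.00759). The call of etv4.L was lost without wnt3a+chordin replicate 3, kctd15 replicate 1 or 2 or lacZ replicate 2 or 3 (adjusted p up to 0.129). For wnt3a+chordin over lacZ 9 were higher and 5 lower, or 43.8% of the list against 41.3% of all. Those that fell included elf1.L (-2.52) and elf1.S (-2.33). The vessel and blood factor fli1.S lay between 3.57 and 4.09 in all arrays.

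Of 17 probe sets of the endothelin pathway, 0 were called between wnt3a+chordin+kctd15 and wnt3a+chordin (limma, 0 higher and 1 lower unadjusted), against 0.647% of all. Relative to lacZ, 1 was higher and 2 lower with kctd15, or 17.6% of the list against 6.99% of all. hand1.L, a bHLH factor of ventral tissue, had 7.12, 6.20 and 7.21 with kctd15, against 4.39, 4.62 and 4.47 with lacZ, and rose by 2.35 (adjusted p = 0.00254). hand2.S, which acts downstream of Ednra in the mouse pharyngeal arches, fell by 2.02 (adjusted p = 0.0301), and mef2c.L, a MADS box factor downstream of endothelin signalling in mouse, by 1.37 (adjusted p = 0.0153). For mef2c.L, whose levels were 3.95 to 4.02 with kctd15 and 5.62, 5.86 and 4.61 with lacZ, 5 of these 6 arrays lay below the reporters' 95th percentile, and so did the lacZ arrays of hand1.L. The call of hand2.S was lost without kctd15 replicate 1 or 2 or any lacZ array (up to 0.111) and that of mef2c.L without kctd15 or lacZ replicates 1 or 2 (up to 0.0655). Between wnt3a+chordin and lacZ 4 were higher and 3 lower, or 41.2% of the list against 41.3% of all. There hand2.S fell by 3.96 (adjusted p = 9.15e-05) and hand2.L by 1.73, while gnaq.S, a G protein subunit that couples endothelin receptors, rose by 1.03 (adjusted p = 0.00029). ednra.S and hand2.S thus differed in direction in that comparison.

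Of 20 probe sets of the Kit pathway and related receptors, pdgfra.L was the 1 called lower, and 0 were called higher, in wnt3a+chordin+kctd15 arrays relative to wnt3a+chordin arrays. This is 5% of the list against 0.647% of all (limma, 2 higher and 3 lower unadjusted). For kctd15 over lacZ 1 was higher and 1 lower, or 10% of the list against 6.99% of all. src.S, a cytoplasmic tyrosine kinase, had 8.19, 8.37 and 8.68 with kctd15, against 10.81, 10.26 and 10.31 with lacZ, and fell by 2.05 (adjusted p = 0.000183). The homeolog src.L did not fall: it had 9.59, 9.94 and 9.67 with kctd15 and 9.49, 9.79 and 9.75 with lacZ. pik3r1.S, a regulatory subunit of phosphoinositide 3-kinase, rose by 0.73 (adjusted p = 0.0155), a call lost without kctd15 replicate 1 or 2 or lacZ replicate 1 or 3 (up to 0.0652). Relative to lacZ, wnt3a+chordin arrays had 7 higher and 8 lower, a share of 75% of the list against 41.3% of all. The 8 include kit.S, kitlg.L and kitlg.S, and the 7 include both probe sets of pdgfra.L.

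Melanophore genes were listed because Kit and endothelin receptors act in pigment cells. Of 16 probe sets, 0 were called between wnt3a+chordin+kctd15 and wnt3a+chordin (limma, 1 higher and 2 lower unadjusted), against 0.647% of all. Between kctd15 and lacZ 2 were higher and 0 lower (4 and 0 unadjusted), or 12.5% of the list against 6.99% of all. The 2 were mreg.L (1.38, adjusted p = 0.012) and gpr143.L (0.85, adjusted p = 0.037), both of melanosome biogenesis or transport in mouse. The call of mreg.L was lost without lacZ replicate 1 (adjusted p = 0.0534) and that of gpr143.L without wnt3a+chordin+kctd15 replicate 1, any kctd15 array or lacZ replicate 1 or 2 (up to 0.125). With wnt3a+chordin over lacZ 4 were higher and 3 lower, or 43.8% of the list against 41.3% of all. There sox10.L, a SoxE factor upstream of mitf, rose by 5.18 (adjusted p = 0.00362), and rab27a.S and mreg.L fell by 3.98 and 3.24. The lacZ arrays of sox10.L and the wnt3a+chordin arrays of mreg.L lay below the reporters' 95th percentile. mitf.L, the regulator of melanocyte genes, had the smallest p of this list between wnt3a+chordin+kctd15 and wnt3a+chordin (-0.45, limma adjusted p = 0.160, not called). That probe set lay between 3.06 and 3.96, below the reporters' 95th percentile in every array.

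Crest migration genes were the longest list. It also holds crest transcription factors. Among them, sox8, sox9, sox10, snai2, twist1, foxd3 and tfap2b are neural crest markers below as well, so that the list and the marker mean are not separate results. Of 63 probe sets 36 rose and 3 fell between wnt3a+chordin and lacZ, which is 61.9% of the list against 41.3% of all. The list median was 1.21, against 0.11 over all probe sets. In wnt3a+chordin+kctd15 arrays relative to wnt3a+chordin arrays 0 rose and 6 fell (limma, 3 and 20 unadjusted), or 9.52% of the list against 0.647% of all. The 6 include snai2.L (-4.36, adjusted p = 0.0457) and sox9.S (-3.82, adjusted p = 0.0369). They also include sox9.L (-2.64) and a probe set of sox8.L (-2.44), and all of these are such factors. The calls of sox9.L and sox8.L were lost without several single arrays (limma adjusted p up to 0.107 and 0.171). The call of snai2.L was lost without any single array other than wnt3a+chordin+kctd15 replicate 3 (adjusted p up to 0.188), and that of sox9.S without any other than wnt3a+chordin+kctd15 replicate 3 or lacZ replicate 3 (up to 0.161). In kctd15 arrays relative to lacZ arrays 0 rose and 11 fell (3 and 19 unadjusted), or 17.5% of the list against 6.99% of all. snai1.S (-3.61, adjusted p = 0.00288), a Snail repressor, and itga5.L (-2.98, adjusted p = 0.000303), the integrin alpha subunit of the fibronectin receptor, were among the 11. itga5.L also fell in the other kctd15 comparison, by 1.92 (adjusted p = 0.0156), and so was lower in both, as ets1.L and ednra.S were.

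**Figure D4:**
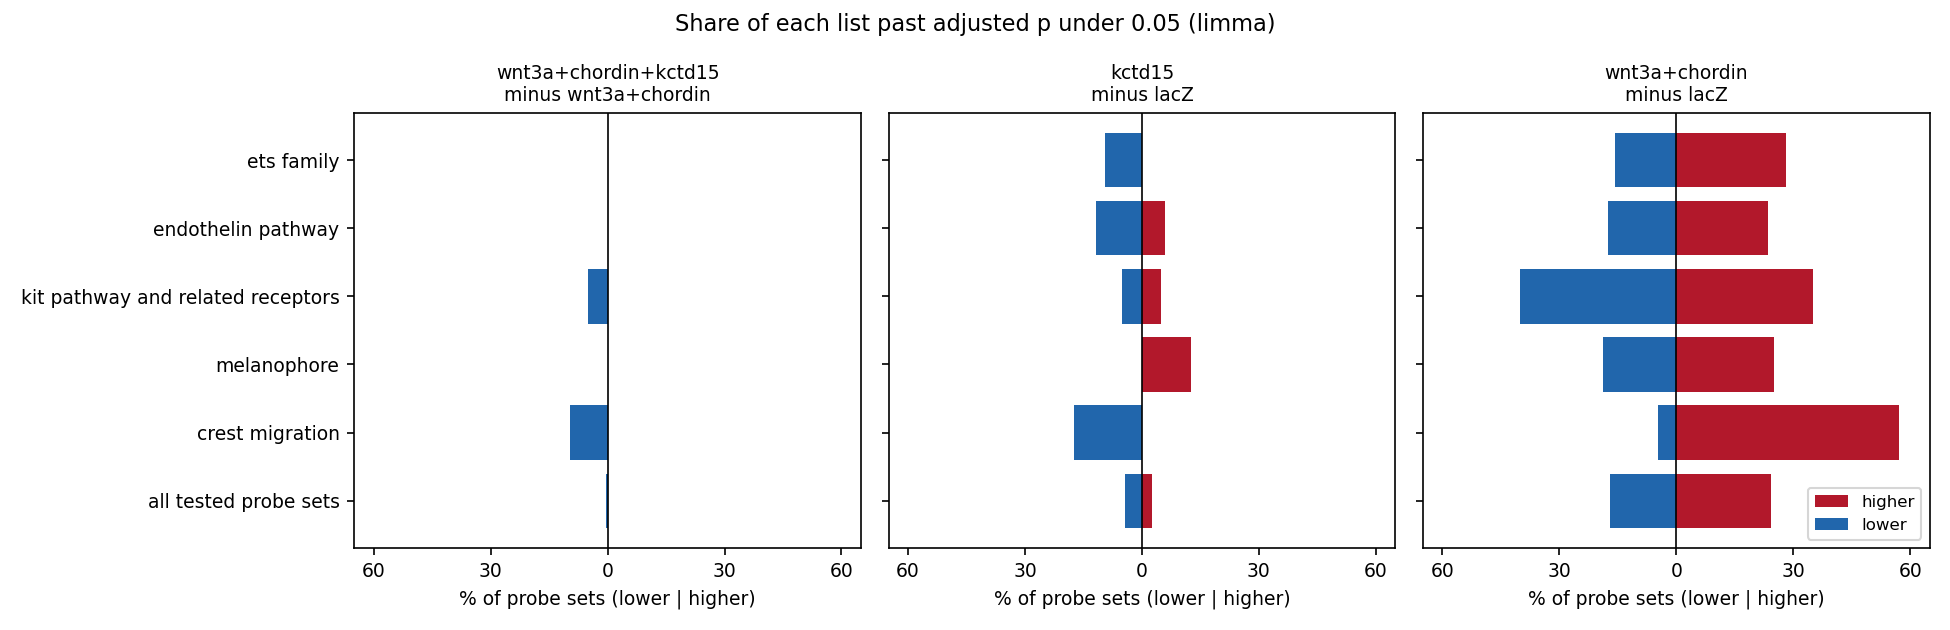
Share of the probe sets of each list, and of all tested probe sets, called higher (red, to the right) or lower (blue, to the left) at an adjusted p under 0.05 in 3 comparisons (x axis in percent). Crest migration genes have 36 of 63 higher between wnt3a+chordin and lacZ, and 0 higher with 11 of 63 lower between kctd15 and lacZ.

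Among all other named genes, likeness of pattern was measured as the root-mean-square distance between log2 profiles centred over the 12 arrays. The nearest to ets1.L were selenom.L (0.67), enpp2.S (0.67), rasgrp1.L (0.68), dapk2.L (0.74) and tuft1.L (0.74), where the median over 14867 probe sets was 1.41. The nearest to ednra.S were slit2.S (0.50), gse1.S (0.57), st3gal2.1.L (0.58), cbfa2t2.S (0.60) and p2ry11.L (0.62), with a median of 1.62. slit2.S encodes a secreted guidance ligand and enpp2.S the enzyme that makes lysophosphatidic acid. The nearest to kit.L were sptssb.L (0.43), kit.S (0.45), cat1.L (0.50), sytl5.L (0.50) and prkcd.S (0.52), with a median of 2.10. The homeolog was thus the second of all for kit.L and was not among the nearest 5 for ets1.L, from which ets1.S lay at 1.22, or for ednra.S, from which ednra.L lay at 1.71. Among themselves, ets1.L and ednra.S were 1.37 apart, ets1.L and kit.L 2.67, and ednra.S and kit.L 3.49.

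Markers of cell types that the caps could hold moved with these groups. The mean of 13 neural crest genes ranged from 8.33 to 9.90 with wnt3a+chordin+kctd15, 10.53 to 11.37 with wnt3a+chordin, 5.62 to 5.97 with kctd15 and 5.75 to 7.04 with lacZ. ednra.S parted the first 2 groups in the same order, but not the others. It overlapped between wnt3a+chordin+kctd15 and lacZ, where the crest mean was apart. It was 2.56 lower with kctd15 than with lacZ in its first probe set, where the crest mean overlapped. Of the 13 genes, zic1.S (13.20 with wnt3a+chordin+kctd15, 12.99 with wnt3a+chordin) and pax3.L (12.29 and 12.23) did not follow the mean between the first 2 groups. The mean of 13 epidermal genes ranged from 9.12 to 10.43, 9.01 to 10.93, 11.68 to 12.26 and 12.85 to 12.97 in the same 4 groups. By this mean, the groups without wnt3a and chordin, where kit.L and kitlg.L were highest, also had the most epidermal transcript. Among these groups, lacZ lay above kctd15 in the epidermal mean, while kit.L and kitlg.L overlapped. The groups with wnt3a and chordin overlapped in the epidermal mean, while kit.L was apart. Single genes went against the epidermal mean: tp63.S averaged 10.05 with wnt3a+chordin and 7.06 with kctd15, and tp63.L 9.33 and 6.04. epcam.L was highest with wnt3a+chordin (14.02). Against the crest mean, pax3.L averaged 12.23 with wnt3a+chordin, 12.93 with kctd15 and 12.85 with lacZ. Its homeolog pax3.S went with the crest mean, at 11.08 with wnt3a+chordin, 4.99 with kctd15 and 4.71 with lacZ. The 10 neural plate genes averaged 10.62 to 11.21, 9.96 to 10.77, 6.59 to 7.55 and 6.43 to 8.56 in the same 4 groups. The 13 notochord genes averaged 4.93 to 7.32, 5.27 to 7.10, 4.15 to 5.82 and 4.81 to 6.93. Ets1 and Kit are also used by vessel, blood and germ cells. Over all 12 arrays the mean of 9 red blood cell genes lay between 5.23 and 6.61 and that of 11 myeloid genes between 5.36 and 6.03. The mean of 15 haemangioblast and endothelial genes lay between 5.42 and 6.46 in all 12 arrays and that of 7 germ cell genes between 5.83 and 6.27, but single genes differed. gata2.L, egfl7.L and aplnr.L were above the reporters' 95th percentile in all 12 arrays, and gata1.L, gata1.S, flt1.S, fli1.S and tal1.S below it in all 12. Of the red blood cell genes 1 was above it in all 12 (hbg1.L, 12.34 to 14.98) and 4 below. Of the myeloid genes 2 were above (spib.S and mmp7.L) and 6 below, and of the germ cell genes 3 (ddx4.L, ddx25.L and tdrd6.L) and 2. cebpa.L, a myeloid list gene, averaged 5.14 with wnt3a+chordin and 8.82 with lacZ, and spib.S 10.42 and 10.24. gata2.L, which the ventral ectoderm also expresses, averaged 8.03 with wnt3a+chordin+kctd15, 7.73 with wnt3a+chordin, 13.02 with kctd15 and 13.59 with lacZ, and hhex.L averaged 3.77, 3.62, 11.17 and 8.04 in the same 4 groups. The part of any of these cell types in the levels of ets1.L, ednra.S and kit.L was not tested.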

How the data were processed

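Total RNA of 12 samples was hybridised to 1 array each, and the titles place 3 in each of 4 groups. The authors deposited log2 expression values, 1 per probe set and array, made with Partek per the submitters' processing notes. The sources used here do not give its version, background correction or normalization. Of 32635 probe sets, 32475 were tested, after removal of 96 controls and 64 reporters. Symbols and positions come from the platform annotation, with 15384 of 15495 gene identifiers found in the RefSeq annotation of Xenopus laevis assembly 10.1. The files name no genome build. Arrays have no read depth, and precision is limited by how many there are.

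limma 3.58.1 (R 4.3.3) fitted the group means of all 12 arrays with moderated errors. Two-sided p values were adjusted over all tested probe sets of a contrast (Benjamini-Hochberg), and a call is an adjusted p under 0.05. The fit was tested on simulated data. The members, lists and tests were chosen with earlier results of these data known. Named genes are the measured homeologs, ligands and related receptors, up to 4 genes per list and comparison with the largest called difference (or the smallest p where none was called), and the 5 nearest profiles per member. Others (fli1.S and the marker genes) were named after their values were seen. Replicate numbers in the titles paired arrays: deviations from the group means correlated at 0.18 to 0.71 for the 18 same-number pairs, against -0.51 to 0.10 for the 36 others. A fit with that number as a block is given where it changes the call of a named gene, and for some counts over all 5 lists. The counts of single lists are from the fit without the block. Other alternatives were quantile normalization, median centring, array weights, a variance trend, a filter on dim probe sets, 1 probe set per gene and leaving out each array, or the 2 richest in muscle transcripts. No sequence was used here.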

Additional observations from a re-analysis of the deposited data

Results flagged for a closer look

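For 3 list genes the kctd15 difference with wnt3a and chordin differed from that without them by the test of the difference itself (limma, all 12 arrays), in a contrast where 1.14% of all tested probe sets passed. For src.S, a tyrosine kinase of the Kit pathway list, the difference of the differences was 1.57 (SE 0.24, adjusted p = 0.0160): kctd15 went with -0.47 in the presence of wnt3a and chordin and with -2.05 in their absence. This call was lost without wnt3a+chordin replicate 3 (adjusted p = 0.0517). The homeolog src.L was not called in this contrast. For pdgfa.S, a ligand of the receptor Pdgfra, the 2 probe sets gave 2.73 (SE 0.39, adjusted p = 0.0116) and 2.97 (SE 0.37, adjusted p = 0.00656), with 0.57 and 0.60 in the presence of wnt3a and chordin and -2.17 and -2.38 in their absence. For sox9.L the value was -3.62 (SE 0.60, adjusted p = 0.0232), with -2.64 in the presence of wnt3a and chordin and 0.98 in their absence. It was lost without any wnt3a+chordin array, wnt3a+chordin+kctd15 replicate 1 or 2, kctd15 replicate 1 or lacZ replicate 2 (adjusted p up to 0.0699).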

How the results depend on the processing

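For the members, 765 of 768 values under the alternatives differed from the reported ones by less than 1 SD between replicates. Many of them could not differ. The replicate block, the variance trend and the filter on dim probe sets leave a difference as it is. So does leaving out an array of a group outside the comparison. Leaving out an array of a compared group moves its mean by less than the SD of that group. The count is therefore no measure of how firm the values are. The SEs given for the members are from the fit without the replicate block. With the block, the SE of a difference between groups in the brightest probe set was 0.52 for ets1.L (0.48 without). It was 0.16 for ednra.S (0.21 without) and 0.30 for kit.L (0.31 without). The difference of the kctd15 differences of kit.L ranged from 1.79 to 2.53 with each array left out, and was 2.51 without the 2 arrays highest in muscle transcripts. That of the third probe set of ets1.L was 0.17 without these 2 arrays, against -0.09, the other sign. Of 149 tested differences of named genes, 87 were called, 66 of them under every alternative, and of 62 not called, 43 stayed so. Many of these genes were named for having the largest called differences, so these counts do not stand for the lists or for all probe sets. No called difference changed sign. With kctd15 added to wnt3a+chordin, the 7 list probe sets called became 12 with the replicate block, 4 with 1 probe set per gene and 1 to 10 with each array left out. Between kctd15 and lacZ the 21 became 36 with the block and 10 to 24 with each array left out. For the difference of the differences the 4 became 7 with the block and 2 to 7 with each array left out. Among the tested differences of named genes, the block changed 12 calls, all of them to called: those of ets2.S, kit.S and pdgfra.L. Calls of other list genes changed too, as the list counts show, and these genes are not named here. The cause was not tested. Dim signals, within the range of the reporters, limit ednra.S in kctd15 arrays, kit.L in wnt3a+chordin arrays and the first probe set of pdgfra.L in kctd15 and lacZ arrays. They also limit kitlg.S in both groups with wnt3a and chordin, and mef2c.L in all but 1 array.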
